A study of Mus musculus with 6 samples.

Results

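The genes described here are 10 genes of white and brown fat cells, Adipoq, Plin1, Lep, Fabp4, Cidec, Cfd, Retn, Pck1, Lpl and Ucp1, measured in the whole prostate gland of 6 mice. They were taken by symbol from the gene tables of the 6 mice, and all 10 of the 10 members were found, each in 1 row, among 47719 gene identifiers. The mice were of the B6.129S4-Trp53tm3.1Tyj/J strain, in which the endogenous Trp53 gene, encoding p53, carries the R270H mutation. Wildtype mice (Trp53+/+, animals 39 and 41) carried 0 mutant alleles, heterozygous mice (Trp53R270H/+, animals 37 and 40) carried 1, and homozygous mice (Trp53R270H/R270H, animals 47 and 49) carried 2. All 6 were about 3 months old, had been given 5 Gy of radiation to the whole body 6 h before dissection, and no unirradiated mouse is part of the comparison. The question put to these genes was whether their RNA differed between the 3 genotypes, and how far each mouse departed from the others.

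White fat cells store triglyceride in a single large droplet and release hormones into the blood, while brown fat cells burn fatty acids to make heat. The stored fat is built from fatty acids that the cell takes up from blood lipoproteins or makes itself, and it is sealed by proteins on the droplet surface. Fat cells lie around and between the lobes of the mouse prostate, whose secretory epithelium makes little of the hormones and droplet coats named here.

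Expression was given as FPKM, the number of fragments scaled by the length of the transcript and by the size of the library, which allows levels of different genes to be set side by side. FPKM summed to between 518671 and 636407 per mouse and between 13452 and 13827 genes reached an FPKM of 1. Fragment counts were not used, and the spacing of the lowest values placed the library size used in this scaling between 0.785 and 1.07 times that of mouse 39. Trp53 FPKM lay between 17.3 and 21.4 and does not check the genotypes, since it does not separate the mutant from the wildtype transcript. Homozygous mouse 47 stood apart from the other 5 in several, but not all, of its gland markers. Pbsn, a secretory protein of the prostate lumen, was at 257 FPKM in mouse 47 and between 7329 and 11512 in the other mice. Of 10 luminal prostate markers, 5 were lowest in mouse 47, while Krt8 at 179 FPKM and Spink1 at 34822 FPKM lay within the range of the other mice. Each of the 9 macrophage markers was lowest in mouse 47. Of 8 seminal vesicle markers, 5 (Svs1, Svs3a, Svs3b, Svs6 and Pate4) were highest in mouse 47, with Svs6 at 26147 FPKM there and between 28.6 and 1021 in the other 5, and the other 3 (Svs2, Svs4 and Svs5) were listed at 0 in it. Values without mouse 47 are given for the members and fat cell lists where its removal changed a count or median of homozygous mice by over 1.5 times.

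In the GENCODE annotation of GRCm38 all 10 genes are protein-coding. Pck1 is on chromosome 2, Fabp4 on 3, Lep and Cidec on 6, Plin1 on 7, Retn, Lpl and Ucp1 on 8, Cfd on 10 and Adipoq on 16. Of the 8 with a promoter in the RefSeq table (GRCm38.p6), Cidec has 2, and Fabp4 and Lpl have no entry. In the 250 bases before each of these 9 start sites, searched on both strands, the letters TTGCNNAA, a pattern bound by C/EBP factors, were found for Lep, Plin1 and Cidec and in 9.57% of 32817 promoters of the same length. AGGTCA, a core site of nuclear receptors, was found for Ucp1 and in 14% of promoters, CCAAT for Adipoq and in 33.8%, and TATAAA for 0 of the 9 and in 12.4%. These matches describe the letters and do not show that a factor binds. The last 150 bases before the start site are shown for 4 genes, Adipoq, whose profile was closest to that shared by the members, Plin1, which was ordered by the number of mutant alleles, and Lep and Ucp1, which departed from the rest. They run 5′ to 3′ on the strand of the gene, with every match to the 4 patterns in capitals (ATTGG is CCAAT on the opposite strand).
Adipoq (chr16:23146386-23146535, plus strand): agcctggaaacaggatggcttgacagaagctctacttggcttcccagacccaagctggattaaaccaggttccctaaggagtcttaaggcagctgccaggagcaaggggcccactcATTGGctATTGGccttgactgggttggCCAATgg
Plin1 (chr7:79732777-79732926, minus strand): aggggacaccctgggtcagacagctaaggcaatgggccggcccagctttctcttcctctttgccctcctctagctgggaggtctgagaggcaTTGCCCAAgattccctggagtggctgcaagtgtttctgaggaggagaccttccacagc
Lep (chr6:29060071-29060220, plus strand): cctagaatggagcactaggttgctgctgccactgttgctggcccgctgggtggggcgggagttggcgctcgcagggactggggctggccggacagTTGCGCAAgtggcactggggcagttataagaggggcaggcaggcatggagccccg
Ucp1 (chr8:83290198-83290347, plus strand): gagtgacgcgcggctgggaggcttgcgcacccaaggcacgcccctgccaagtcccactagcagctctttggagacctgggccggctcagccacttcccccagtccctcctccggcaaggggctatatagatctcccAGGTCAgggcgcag
The Lep match begins 55 bases before the start site and reads the same on both strands, the Plin1 match begins 58 bases before it, and the Ucp1 match begins 14 bases before it. In Adipoq the 3 CCAAT matches begin 34, 27 and 7 bases before the start site, with the first 2 on the opposite strand.

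RNA of 9 of the 10 genes was above 1 FPKM in every prostate, Ucp1 being the other. Averaged over the 6 mice, Cfd had an FPKM of 205 and Fabp4 of 187, which placed them above 97.8% and 97.6% of the 13818 tested genes (those with a mean FPKM of at least 1). All 10 members passed this filter. Lpl, Cidec and Adipoq followed with means of 35.6, 34.4 and 33.2 FPKM, then Retn with 18.5, Plin1 with 16.4 and Pck1 with 12.9, while Ucp1 with 3.82 and Lep with 2.82 were lowest. The order was nearly fixed. In all 6 mice Cfd and Fabp4 held ranks 1 and 2, Lpl, Cidec and Adipoq ranks 3 to 5, Retn and Plin1 ranks 6 and 7, Pck1 rank 8, and Lep and Ucp1 ranks 9 and 10, so that the order changed between mice only within these steps. Together the 10 genes summed to 508 and 349 FPKM in the wildtype pair, 439 and 557 in the heterozygous pair, and 764 and 680 in the homozygous pair, or between 0.0574% and 0.131% of all FPKM of a mouse. Both homozygous sums lay above the other 4. In whole tissue, more fat cells and more RNA of these genes per fat cell cannot be told apart.

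**Figure D1:**
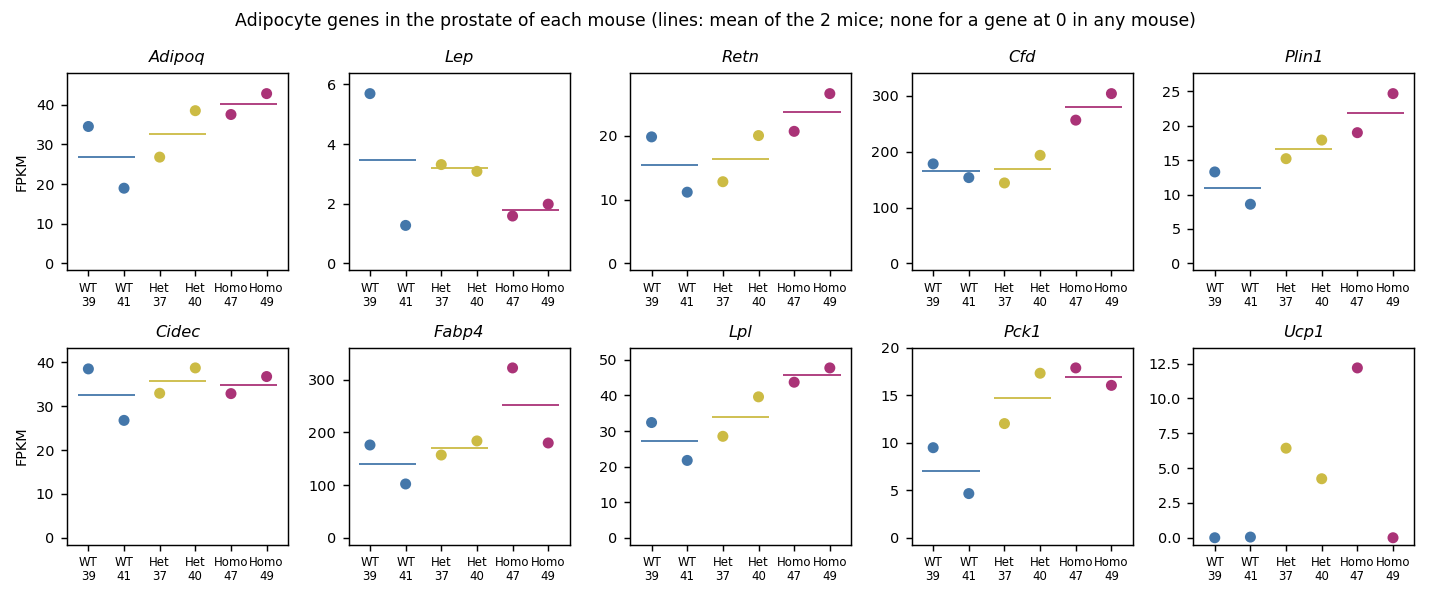
FPKM (y axis, linear, from 0) of the 10 adipocyte genes in each of the 6 mice (x axis, genotype and animal number; WT, wildtype; Het, heterozygous; Homo, homozygous), with 1 point per mouse and a line at the mean of each genotype, left out for Ucp1, which is listed at 0 in 2 mice. Mouse 41 is lowest for 8 of the 10 genes, and Ucp1 is at or near 0 in both wildtype mice and in mouse 49.

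Across the 3 genotypes, 0 of the 10 members passed the moderated F-test of limma at an adjusted p of 0.05, against 0.101% of all tested genes, and 3 had an unadjusted p under 0.05, against 11.5%. In heterozygous against wildtype mice 0 members passed, where 0% of all genes did. In homozygous against wildtype mice 0 members passed, against 0.384% of all genes, and in homozygous against heterozygous mice 0 passed, against 0.0145%. The lowest adjusted p of any member was 0.589, 0.164 and 0.707 in these 3 contrasts. Every difference below is therefore given as a value that did not pass the test over all genes.

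In homozygous against wildtype mice 9 of the 10 members had a positive log2 fold change, where 45.0% of all tested genes did, and the members' median was 0.77 beside −0.04 over all tested genes. Without wildtype mouse 41 the median was 0.47 and 8 were positive. Both homozygous mice lay above both wildtype mice for 7 members (Adipoq, Plin1, Fabp4, Cfd, Retn, Pck1 and Lpl), where 21.3% of all genes did so, and below them for 0, where 28.7% did so. At an unadjusted p under 0.05, 4 were higher (Plin1, Cfd, Pck1 and Lpl), against 8.65% of all genes, and 0 lower, against 9.32%. In heterozygous against wildtype mice all 10 log2 fold changes were positive, where 47.2% of all genes were, with a median of 0.33 beside −0.01. This direction rested on wildtype mouse 41, without which 4 of the 10 were positive and the median was −0.073, and without mouse 40 the median was 0.17. Without mouse 39 it was 0.75 and without mouse 37 it was 0.52. Here both heterozygous mice lay above both wildtype mice for 3 members (Plin1, Pck1 and Ucp1), against 19.2% of all genes, and below them for 0, against 19.9%. These 3 also had an unadjusted p under 0.05, against 4.66% of all genes that were higher by this rule, and 0 were lower, against 2.21%. The 2 contrasts share the wildtype mice and are not independent of each other.

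The counts at an unadjusted p and without overlap also varied with single mice. Without mouse 41 the number of members higher at an unadjusted p under 0.05 went from 3 to 0 in heterozygous and from 4 to 2 in homozygous mice, and without wildtype mouse 39 it went to 5 and 7. In the heterozygous contrast it was 0 without mouse 40 and 1 without mouse 37, and in the homozygous contrast it was 2 without mouse 47 and 4 without mouse 49. Without mouse 41, 1 member was lower at an unadjusted p under 0.05 in each of these contrasts. Leaving out a mouse cannot undo a separation of genotypes, so the counts without overlap could only stay or rise. The 7 members with homozygous above wildtype mice were 7 in number without mouse 41 and without mouse 47, the fixed minimum. The 3 of the heterozygous contrast became 9 without mouse 39 and 9 without mouse 37. Separation is easier for any gene when a single mouse is left in a genotype. No share of all genes is given beside the counts with a mouse left out, so they cannot be read against a background. In the direct contrast of homozygous with heterozygous mice, 7 members had a positive log2 fold change (45.7% of all genes) with a median of 0.35, which was 0.13 without mouse 37 and 0.54 without mouse 40. Of the 10, 4 lay higher without overlap (Plin1, Cfd, Retn and Lpl, against 18.0%) and 1 lower (Lep, against 24.1%). Cfd alone had an unadjusted p under 0.05 (1.97% of all genes were higher by this rule), 0 members were lower (4.42% of all genes), and without heterozygous mouse 37 no member was higher by this rule (0 of 10). The 4 that lay higher without overlap became 7 without heterozygous mouse 40 and 7 without homozygous mouse 49, and the 1 that lay lower became 2 without mouse 37, 47 or 49. Plin1 was the 1 member in which both heterozygous mice lay above both wildtype mice and below both homozygous mice, a pattern found in 3.85% of all genes.

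**Figure D2:**
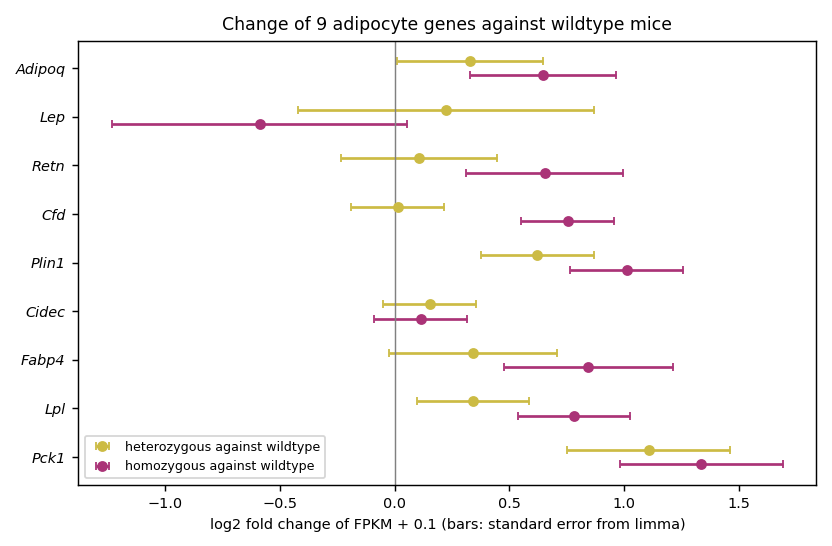
Log2 fold change of FPKM + 0.1 (x axis) against the wildtype mice for 9 adipocyte genes (y axis; Ucp1 is left out because a wildtype mouse is listed at 0), for heterozygous (yellow) and homozygous (purple) mice, with bars of 1 standard error from limma (n = 2 mice per genotype). Pck1 and Plin1 have the largest values in homozygous mice, 1.34 and 1.01, and Lep is the 1 gene with a value below 0, at −0.59.

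Plin1 and Cidec encode proteins of the lipid droplet. Plin1 encodes perilipin 1, the coat protein that guards the droplet of fat cells against lipases. Its FPKM was 13.3 and 8.59 in the wildtype pair, 15.2 and 17.9 in the heterozygous pair, and 19.0 and 24.6 in the homozygous pair, so the 3 genotypes did not overlap. Against wildtype, the log2 fold change of heterozygous mice was 0.62 (standard error, SE, 0.25, unadjusted p = 0.047, limma adjusted p = 0.717) and that of homozygous mice was 1.01 (SE 0.25, unadjusted p = 0.007, limma adjusted p = 0.164). Without mouse 41 these values were 0.31 and 0.70. Cidec, which makes small droplets fuse into a large one, was at 38.5 and 26.8 FPKM in the wildtype pair, 33.0 and 38.7 in the heterozygous pair, and 32.9 and 36.8 in the homozygous pair. The genotypes overlapped throughout, its highest and lowest mouse differed by 1.45-fold, less than for any other member, and its log2 fold change was 0.15 in heterozygous and 0.11 in homozygous mice (SE 0.20 for both). The 95% interval of the homozygous value ran from −0.38 to 0.61.

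Lpl and Fabp4 serve fatty acid supply. Lpl encodes lipoprotein lipase, which frees fatty acids from circulating triglyceride, and is also made by muscle and macrophages. Its FPKM was 32.4 and 21.7 in the wildtype pair, 28.5 and 39.6 in the heterozygous pair, and 43.7 and 47.7 in the homozygous pair, both of which were above the other 4. Against wildtype, the log2 fold change of heterozygous mice was 0.34 (SE 0.24, limma adjusted p = 0.876) and that of homozygous mice was 0.78 (SE 0.24, unadjusted p = 0.019, limma adjusted p = 0.210), and without mouse 41 they were 0.053 and 0.50. Fabp4 encodes the fatty acid carrier of the adipocyte cytosol and is also made by capillary endothelium. It was at 176 and 102 FPKM in the wildtype pair, 157 and 184 in the heterozygous pair, and 322 and 180 in the homozygous pair. Mouse 47 alone stood high, mouse 49 was below heterozygous mouse 40, and the homozygous log2 fold change of 0.84 (SE 0.37, limma adjusted p = 0.301) went with a 1.79-fold difference between the 2 homozygous mice. It was 0.42 without mouse 47 and 0.45 without mouse 41. Relative to Adipoq, Fabp4 was 8.60 in mouse 47 and between 4.21 and 5.86 in the other 5 mice.

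Pck1 encodes cytosolic phosphoenolpyruvate carboxykinase, which in fat cells supplies the glycerol backbone of triglyceride and in liver and kidney supplies glucose. Its FPKM was 9.47 and 4.64 in the wildtype pair, 12.0 and 17.3 in the heterozygous pair, and 17.9 and 16.0 in the homozygous pair. Both mutant genotypes lay above wildtype and overlapped each other. Against wildtype, the log2 fold change of heterozygous mice was 1.11 (SE 0.35, unadjusted p = 0.022, limma adjusted p = 0.589) and that of homozygous mice was 1.34 (SE 0.35, unadjusted p = 0.010, limma adjusted p = 0.179), the largest among the 9 members above 0 in every mouse. Without mouse 41 these values were 0.60 and 0.83. The ratio of Pck1 to Adipoq was 0.275 and 0.245 in the wildtype mice and between 0.375 and 0.476 in the other 4, without overlap. That of Plin1 to Adipoq was separated in the same way, at 0.385 and 0.4535 in the wildtype mice and between 0.4655 and 0.5763 in the other 4. The ratios of the other members to Adipoq did not separate the wildtype from the mutant mice. These ratios were not tested, and no share of all genes is given beside them. The markers of liver and kidney were at or near 0, with a summed FPKM of 5 genes between 0.28 and 1.77 and Alb, the albumin gene of hepatocytes, between 0.0187 and 0.342.

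Adipoq, Retn, Cfd and Lep encode secreted products. Adipoq, encoding the insulin-sensitizing hormone adiponectin and a defining marker of fat cells, was at 34.5 and 18.9 FPKM in the wildtype pair, 26.8 and 38.5 in the heterozygous pair, and 37.5 and 42.8 in the homozygous pair. Wildtype and heterozygous mice overlapped, and the homozygous mice were above both wildtype mice while mouse 47 was below heterozygous mouse 40. Against wildtype, the log2 fold change of heterozygous mice was 0.33 (SE 0.32, limma adjusted p = 0.922) and that of homozygous mice was 0.65 (SE 0.32, unadjusted p = 0.090, limma adjusted p = 0.346). With 1 mouse left out, the homozygous value lay between 0.215 (without mouse 41) and 1.08 (without mouse 39). Retn, encoding resistin, was at 19.8 and 11.2, 12.8 and 20.05, and 20.7 and 26.6 FPKM in wildtype, heterozygous and homozygous mice. The 2 homozygous mice were the highest, by a small margin for mouse 47, and the log2 fold change of 0.65 (SE 0.34, limma adjusted p = 0.367) lay within 2 SEs of 0 and was between 0.24 (without mouse 41) and 1.07 (without mouse 39) with 1 mouse left out.

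Cfd, encoding adipsin or complement factor D, which activates the alternative complement pathway, was at 178 and 154 FPKM in the wildtype pair, 144 and 193 in the heterozygous pair, and 256 and 304 in the homozygous pair. The homozygous mice stood above the other 4, which overlapped. Against wildtype, the log2 fold change of heterozygous mice was 0.01 (SE 0.20, 95% interval −0.49 to 0.52) and that of homozygous mice was 0.75 (SE 0.20, unadjusted p = 0.011, limma adjusted p = 0.182), and homozygous against heterozygous mice differed by 0.74 (unadjusted p = 0.011, limma adjusted p = 0.707). Lep encodes leptin, the satiety hormone whose level in fat cells follows their lipid content. It was at 5.69 and 1.27 FPKM in the wildtype pair, 3.31 and 3.09 in the heterozygous pair, and 1.59 and 1.99 in the homozygous pair. The 2 wildtype mice were at once the highest and the lowest of the 6, a 4.46-fold difference, so that the log2 fold changes of 0.22 in heterozygous and −0.59 in homozygous mice (SE 0.64 for both) were no larger than their SE. The heterozygous value is a difference of log2 means, and the mean FPKM of the heterozygous mice, 3.20, was below that of the wildtype mice, 3.48. Both homozygous mice were below both heterozygous mice, by −0.81 on the log2 scale (SE 0.64, limma adjusted p = 0.732). Per unit of Adipoq, Lep was 0.165 and 0.0673 in the wildtype pair, 0.124 and 0.0802 in the heterozygous pair, and 0.0424 and 0.0464 in the homozygous pair, the lowest pair of the 6. Cidec per unit of Adipoq was lowest in the same pair, at 0.877 and 0.860, and at least 1.01 in the other mice. Neither ratio was tested.

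**Figure D3:**
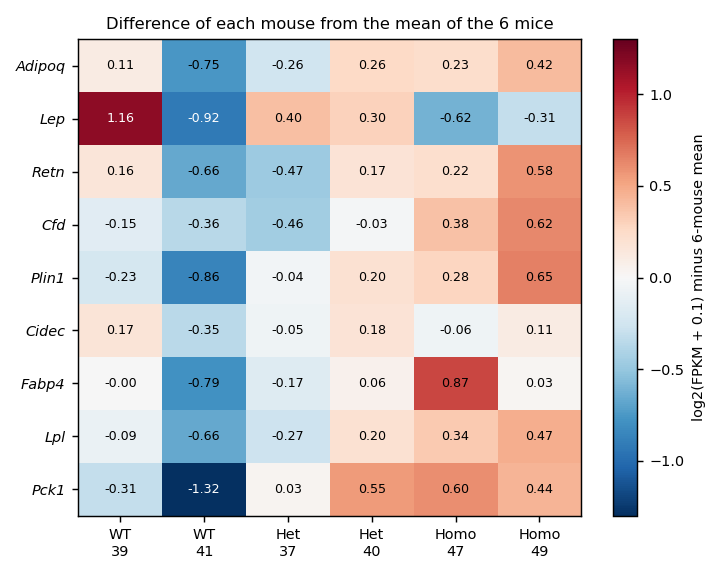
Difference of each mouse (columns) from the mean of the 6 mice on the log2(FPKM + 0.1) scale for 9 adipocyte genes (rows), blue below and red above the mean, with the value printed in each cell. Mouse 41 is below the mean for all 9 genes, and Lep is the row in which both homozygous mice are below the mean.

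Read by mouse, most members varied together, with Lep and Ucp1 as exceptions. Wildtype mouse 41 was the lowest of the 6 for 8 of the 10 members, where 13.2% of all tested genes were lowest in it, and 0 members were above their mean over the 6 mice. The median difference of the members from that mean was −0.77 in mouse 41 and −0.04 in wildtype mouse 39, on the log2 scale. Heterozygous mice 37 and 40 had medians of −0.11 and 0.20, and homozygous mice 47 and 49 had 0.31 and 0.43. Mouse 49 was highest for 5 members (16.6% of all genes) and mouse 47 for 3 (20.5%). Mice 39 and 40, of different genotype, were closer to each other by this median than mice 39 and 41 were, and the difference between the 2 wildtype mice, a median of 1.72-fold over the 9 members other than Ucp1, was larger than the 1.34-fold between the heterozygous mice and the 1.19-fold between the homozygous mice.

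Ucp1 encodes uncoupling protein 1, the mitochondrial proton channel that defines brown and beige fat cells and makes heat. Its FPKM was 6.43 and 4.24 in the heterozygous mice and 12.2 in homozygous mouse 47, while it was 0.0486 in wildtype mouse 41 and listed at 0 in wildtype mouse 39 and homozygous mouse 49. Both heterozygous mice lay above both wildtype mice, and the homozygous mice held the highest and a lowest value of the 6. A value of exactly 0 need not be an absence here, since abundant secretory genes such as Sbp, at 19587 and 24775 FPKM in mice 41 and 37, are listed at 0 in the other 4. Because 2 mice are at 0, no fold is given, and the fitted log2 difference of heterozygous from wildtype mice went from 2.61 with a pseudocount of 1 to 7.76 with 0.01 (5.45 with 0.1, unadjusted p = 0.042, limma adjusted p = 0.695). Without homozygous mouse 49 Ucp1 passed the test in homozygous against wildtype mice (6.66 on the log2 scale, limma adjusted p = 0.030, the lone mouse being assumed to vary like the other groups), and without mouse 47 the fitted difference was −0.29. Over all alternatives the adjusted p of this contrast lay between 0.030 and 0.817.

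Genes of the brown fat list did not vary alike, and of those set beside Ucp1 here several were chosen after their values were seen. Cidea, the droplet protein of brown fat cells, was at 0.744 and 0.556 FPKM in the wildtype pair, 5.04 and 2.58 in the heterozygous pair, 14.0 in mouse 47 and 0.722 in mouse 49. Mice 47, 37 and 40 were highest for Cidea, in the same order as for Ucp1. Otop1, a proton channel enriched in brown fat, was at 0.531, 0.445 and 0.269 FPKM in these mice and between 0.065 and 0.149 in the others. Elovl3, the elongase induced by cold in brown fat, was at 0.368 FPKM in mouse 47, at most 0.0531 in the other mutant mice and listed at 0 in both wildtype mice. Slc36a2, an amino acid transporter marking brown fat cells, was at 4.73 FPKM in mouse 47 and between 0.659 and 1.88 in the other 5, where mouse 49 was above both heterozygous mice, unlike for Ucp1. Other genes of the list were high or low in other mice. Ebf2, a transcription factor of brown fat precursors, and Bmp8b, a secreted factor of brown fat, were lowest in mouse 47, at 0.217 and 0.207 FPKM. Kcnk3, a potassium channel, was highest in mouse 39 at 76.4 FPKM, Letmd1 in mouse 41 at 15.8 and Ppargc1a, the coactivator PGC-1α, in mouse 49 at 1.61. Zic1, a marker of classical brown fat, was listed at 0 in 5 mice, and Dio2, the deiodinase that activates thyroid hormone in brown fat, did not follow Ucp1, at 0.476 and 0.360, 0.280 and 0.665, and 0.398 and 0.699 FPKM. Of the 15 genes of the brown fat list, 8 passed the filter and 0 of these passed the test. At an unadjusted p under 0.05, 4 were higher in homozygous than in wildtype mice (Cox8b, Cox7a1, Slc36a2 and Prdm16), against 8.65% of all genes. The list median was 1.19. Without mouse 47 the median was 0.77 and 3 were higher by this rule. This list was not tested as a set.

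Cox8b and Cox7a1, respiratory chain subunits used by brown fat, heart and skeletal muscle alike, were in mouse 49 just below both heterozygous mice and above both wildtype mice. Cox8b was at 43.6 and 53.7, 107 and 88.3, and 158 and 85.4 FPKM, and Cox7a1 at 36.4 and 47.7, 78.4 and 77.0, and 121 and 68.8 FPKM, in wildtype, heterozygous and homozygous mice. The skeletal muscle markers were likewise lowest in the wildtype mice. All 9 of the 9 muscle markers lay higher in both homozygous than in both wildtype mice, and higher in both heterozygous than in both wildtype mice, where 21.3% and 19.2% of all genes did so. In homozygous mice 8 of the 9 had an unadjusted p under 0.05, against 8.65% of all genes that were higher by this rule. In heterozygous mice 8 of the 9 did, against 4.66%, and 0 of the muscle markers passed the test in either contrast. Their summed FPKM was 1539 and 2255 in the wildtype pair, 4292 and 4535 in the heterozygous pair, and 5289 and 4604 in the homozygous pair, and Acta1, skeletal actin, was between 460 and 1532 FPKM. The part of muscle RNA in the values of Lpl, Pck1, Cox8b and Cox7a1 was not tested.

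**Figure D4:**
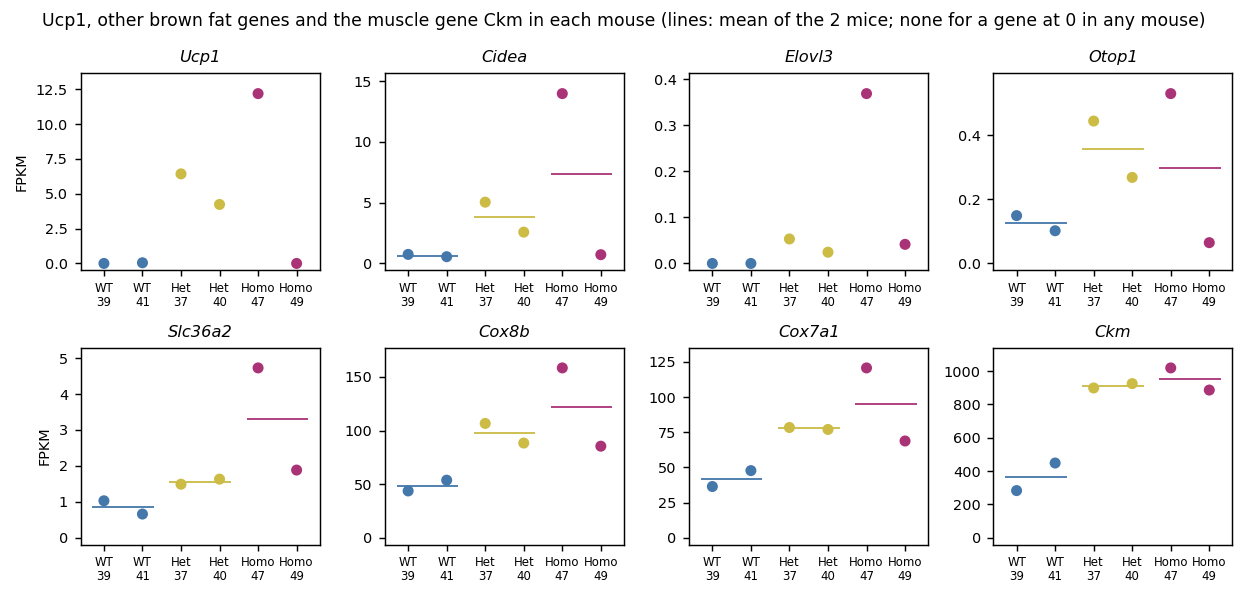
FPKM (y axis, linear, from 0) of Ucp1, 6 other genes used by brown fat and the muscle creatine kinase gene Ckm in each mouse (x axis, genotype and animal number), 1 point per mouse with a line at the mean of each genotype for the genes listed at 0 in no mouse. Ucp1, Cidea and Otop1 are highest in mice 37, 40 and 47, while Ckm is between 886 and 1019 FPKM in all 4 mutant mice and at 283 and 448 FPKM in the wildtype mice.

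The other genes of the fat cell programme were described from lists by role. Together 80 genes outside the members were in the further white, brown fat, synthesis, uptake, droplet and transcription factor lists. Of these, 71 passed the filter and 0 passed the test in any comparison. The lists of progenitors, of receptors and partners and of family relatives, described below, were not pooled here. In homozygous against wildtype mice 28 of the 71 were higher and 2 lower at an unadjusted p under 0.05 (8.65% and 9.32% of all genes), with a median log2 fold change of 0.45, and without mouse 47 the 28 became 18 and the 2 became 1. In heterozygous against wildtype mice 13 were higher and 0 lower (4.66% and 2.21% of all genes), with a median of 0.20, and without heterozygous mouse 40 the 13 became 5. In homozygous against heterozygous mice 6 were higher and 1 lower (1.97% and 4.42% of all genes), with a median of 0.17. Without mouse 49 the 6 became 18, without heterozygous mouse 37 they became 2, and without mouse 47 they became 3, with a median of 0.062.

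The list of further white fat cell genes had 18 tested genes. Of these, 9 were higher in homozygous than in wildtype mice at an unadjusted p under 0.05 and 0 lower, the list median was 0.76, and 12 were lowest in mouse 41. For this list and those below, 8.65% of all genes were higher and 9.32% lower at an unadjusted p under 0.05. The 9 became 5 without mouse 47 and 5 without mouse 41. Car3, the carbonic anhydrase abundant in fat and slow muscle, was at 256 and 193 FPKM in the wildtype pair, 232 and 341 in the heterozygous pair, and 367 and 430 in the homozygous pair (log2 fold change 0.84 in homozygous mice, limma adjusted p = 0.208). Ces1d, a triglyceride hydrolase of fat cells, was ordered by the number of mutant alleles, at 17.5 and 27.3, 38.6 and 48.1, and 70.1 and 53.6 FPKM (log2 fold change 1.48 in homozygous mice, SE 0.26, limma adjusted p = 0.109). Pnpla3, Aqp7, the glycerol channel, and Mrap, the melanocortin receptor accessory protein, had homozygous log2 fold changes of 1.21, 1.05 and 0.89. Lipe, the hormone-sensitive lipase, had −0.08 (SE 0.13), at 29.4 and 35.2 FPKM in wildtype against 30.1 and 30.6 in homozygous mice, and Hp had 0.37 (SE 0.34).

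Of 16 tested genes that make fatty acids and triglyceride, 6 were higher in homozygous mice at an unadjusted p under 0.05 and 0 were lower, with a median of 0.45. Without mouse 47 the median was 0.14 and 4 were higher. Dgat2, which adds the last fatty acid to triglyceride, was at 11.1 and 8.12, 15.1 and 15.4, and 18.0 and 17.6 FPKM across the genotypes, ordered without overlap (log2 fold change 0.90, limma adjusted p = 0.117). Gpd1, which makes glycerol phosphate and is also abundant in muscle, was at 24.5 and 21.3, 36.7 and 39.1, and 58.3 and 39.2 FPKM (1.06, limma adjusted p = 0.126). Thrsp and Elovl6, both induced during fat synthesis, had log2 fold changes of 1.63 in homozygous mice, with Thrsp at 32.6 FPKM in mouse 47 and 12.0 in mouse 49 against 6.18 to 9.26 in the other 4. Acsl1, the long-chain acyl-CoA synthetase, had 0.60 (limma adjusted p = 0.155). Fasn, the fatty acid synthase, was at 98.7 FPKM in mouse 47 and between 41.6 and 51.3 in the other 5, and the desaturases Scd1 and Scd2, also used outside fat, had 0.00 and −0.27.

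For uptake, 4 of 9 genes were higher in homozygous mice at an unadjusted p under 0.05 and 0 lower, with a median of 0.45. Without mouse 47 the 4 became 2. Slc2a4, the insulin-regulated glucose transporter of fat and muscle, was at 13.9 and 18.3, 25.8 and 31.5, and 30.9 and 35.9 FPKM (log2 fold change 1.06, limma adjusted p = 0.110). Gpihbp1, which holds lipoprotein lipase on the capillary wall, was at 4.601 and 6.09, 9.66 and 9.27, and 10.3 and 8.05 FPKM (0.83 in heterozygous and 0.77 in homozygous mice). Vldlr, the very low density lipoprotein receptor, had 0.91 in homozygous mice. Cd36, Slc27a1 and Lmf1 had 0.45, −0.12 and −0.15, none with an unadjusted p under 0.05.

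Droplet and lipolysis genes had values on both sides, with 3 of 12 higher and 2 lower in homozygous mice at an unadjusted p under 0.05 and a median of 0.15. The 2 lower are those found lower among the 71 genes above, where their number was smaller without mouse 47. G0s2, an inhibitor of the lipase ATGL, was at 11.3 and 13.9 FPKM in the wildtype mice and between 21.9 and 31.0 in the 4 mutant mice (1.06 in heterozygous, adjusted p = 0.289, and 1.05 in homozygous mice, adjusted p = 0.128, both from limma). Mgll, the monoglyceride lipase, had 0.87, and Plin5, a droplet protein of oxidative tissue, had 0.98 (limma adjusted p = 0.336). Bscl2, encoding seipin and expressed in many tissues, was lower with each mutant allele, at 66.5 and 61.1, 55.6 and 52.2, and 48.0 and 45.3 FPKM (−0.45, limma adjusted p = 0.174). Pnpla2, encoding ATGL, and Plin3 had 0.14 and −0.17.

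Among the transcription factors of fat cell differentiation, 3 of 11 were higher in homozygous mice at an unadjusted p under 0.05 and 0 lower, with a median of 0.08 that lay between 0.015 and 0.16 with 1 mouse left out and was 0.15 without mouse 47. Pparg, the master regulator of fat cell formation, was at 1.85 and 2.33, 3.71 and 2.66, and 4.92 and 3.06 FPKM (0.87, SE 0.30, limma adjusted p = 0.237). Cebpa, its partner in the mature fat cell, was ordered without overlap at 14.2 and 14.5, 17.5 and 19.7, and 22.5 and 22.7 FPKM (0.65, SE 0.11, limma adjusted p = 0.109). Mlxipl, encoding the glucose-sensing factor ChREBP, had 1.60 (limma adjusted p = 0.151). Factors of early differentiation and of wide expression had −0.25 for Cebpb, −0.83 for Cebpd, 0.08 for Srebf1 and 0.18 for Klf15, and the 8 tested genes of adipocyte progenitors (among them Ly6a, Cd34, Dpp4, Icam1, Pdgfrb and Col15a1) had a median of 0.10, with 0 of 8 at an unadjusted p under 0.05.

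The receptors and partners of the secreted members had a median of −0.21 in homozygous mice. At an unadjusted p under 0.05, 1 of 9 was higher and 1 lower, beside 8.65% and 9.32% of all genes. In mouse 47, 7 of the 9 were lowest, as were 25.5% of all genes. Without mouse 47 the median was 0.55 and 4 were higher. Adipor1, the adiponectin receptor found in most cells, was at 115 and 128, 118 and 105, and 79.1 and 97.5 FPKM (−0.47, limma adjusted p = 0.228). Adipor2 had −0.57 and the resistin receptor Cap1 −0.21, while Cdh13, T-cadherin, which binds adiponectin on vessels and muscle, had 0.41 (limma adjusted p = 0.272). C3, the complement protein that the pathway of adipsin cleaves, was at 7.45 FPKM in mouse 47 and between 16.2 and 34.1 in the other 5, and Cfp, properdin, was likewise lowest in mouse 47, at 4.03 FPKM. Relatives of the members from the same gene families had 1 of 15 higher and 0 lower, beside 8.65% and 9.32% of all genes. Some of them, such as Plin4 and Cidea, are also in the fat cell lists above. The median of these relatives was 0.29, which was −0.065 without mouse 47 and at most 0.094 without any other single mouse of the contrast. Ucp2, at 193 and 318, 271 and 199, and 187 and 192 FPKM, had −0.39, and Retnla, a resistin relative of alternatively activated macrophages, was at 11.4 FPKM in mouse 47 and 51.0 to 128 in the other 5. Lipc and Pnliprp1, lipases related to Lpl, were also lowest in mouse 47, at 0.167 and 1.20 FPKM, and Fabp7 had 1.24 (limma adjusted p = 0.282).

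Markers of other cell types also varied between mice. The 8 endothelial markers had a positive log2 fold change in both mutant genotypes, where 47.2% of all genes did in heterozygous and 45.0% in homozygous mice. In each contrast 4 of 8 had an unadjusted p under 0.05, against 4.66% and 8.65% of all genes that were higher by this rule. The medians of these markers were 0.51 in heterozygous and 0.43 in homozygous mice. Cdh5, the cadherin of vessels, was at 5.54 and 5.15, 7.30 and 8.25, and 8.05 and 10.01 FPKM. The summed FPKM of the endothelial markers lay between 42.1 and 54.3 in the wildtype mice and between 59.2 and 72.5 in the 4 mutant mice. The 9 macrophage markers summed to 173 and 167 FPKM in the wildtype pair, 265 and 223 in the heterozygous pair, and 102 and 266 in the homozygous pair. Nerve, mesothelial and blood markers gave 1 of 4, 0 of 2 and 0 of 3 tested genes higher in homozygous mice at an unadjusted p under 0.05. Smooth muscle, basal and luminal markers gave 1 of 7, 1 of 4 and 0 of 10 higher, with 0, 1 and 2 lower. By this rule 8.65% of all genes were higher and 9.32% lower. Seminal vesicle markers gave 0 higher and 1 lower of 8, Svs2 being listed at 0 in both homozygous mice (limma adjusted p = 0.048), where an exact 0 need not be an absence. Their median difference from the mean over the 6 mice was 3.99 in mouse 47 and −4.34 in mouse 39, and their median log2 fold change in homozygous mice was 3.43. The part of these cell types in the differences of the adipocyte genes was not tested.

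**Figure D5:**
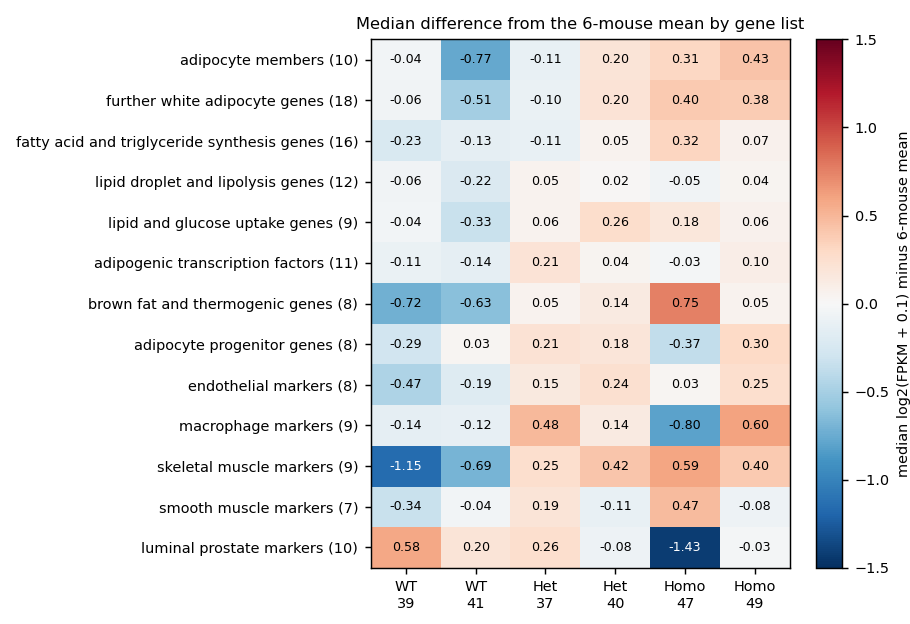
Median difference of the genes of a list (rows, number of tested genes in brackets) from their mean over the 6 mice in each mouse (columns), on the log2(FPKM + 0.1) scale, blue below and red above the mean. The adipocyte members and the further white adipocyte genes are lowest in mouse 41, at −0.77 and −0.51, while the skeletal muscle markers are lowest in mouse 39, at −1.15.

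The adipocyte members and the skeletal muscle markers were lowest in different wildtype mice. The median of the skeletal muscle markers was −1.15 in mouse 39 and −0.69 in mouse 41, while that of the adipocyte members was −0.04 and −0.77, and that of the luminal prostate markers 0.58 and 0.20. Between these mice, the further white, droplet, uptake and transcription factor lists had the lower median in mouse 41. For the brown fat list, the synthesis genes and the progenitors the lower median was in mouse 39. In mouse 47 the members had 0.31, the brown fat list 0.75, the macrophage markers −0.80 and the luminal markers −1.43. In mouse 49, with the highest median of the members at 0.43, the brown fat list had 0.05 and the luminal markers −0.03.

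The genes whose profile over the 6 mice was most like that of the members were found by Pearson's r with the mean of the members' z-scores, a description over 6 mice that share the libraries of the members. Among 13808 candidates, Mcm2 (r = 0.998), Acot9 (0.997), Lpgat1 (0.992), Arl4a (0.988), Aqp7 (0.987), Ttl (0.986), Cobl (0.983), Galnt3 (0.982), Lyn (0.982) and Chpt1 (0.981) came first. Of these 10, Aqp7 alone was in a list of fat cell genes, and 128 candidates had an r of at least 0.9. Mcm2, a subunit of the replicative helicase, was at 4.82 and 4.06, 4.70 and 5.09, and 5.21 and 5.21 FPKM, and so spanned a far narrower range than the members, while Lpgat1, a lysophospholipid acyltransferase, was at 6.06 and 3.67, 5.24 and 6.90, and 7.41 and 7.78 FPKM. The members' own r with their mean was highest for Adipoq (0.98), Lpl (0.96) and Pck1 (0.957) and lowest for Ucp1 (0.326) and Lep (0.294), where each member is part of the mean it is set against.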

How the data were processed

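RNA of 6 prostates was analysed, 2 mice per genotype as given by the submitters' labels. The authors prepared stranded mRNA libraries, aligned the reads to GRCm38 (mm10) with HISAT and quantified genes with Cufflinks. The deposited values are gene-level FPKM, 1 value per gene and mouse. Cuffnorm and bcl2fastq are also named in the submitters' processing notes. Tool versions and the annotation are not given in the sources used here. The labels name separate animals but no litter or sequencing batch, so none was entered and p-values measure the spread between animals. Relative library sizes, as used in the scaling to FPKM, were read from the most frequent ratio of the lowest values between mice. Fragment counts were not recovered, so the sampling error of single values is unknown.

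For 13818 genes whose mean FPKM was 1 or more, log2(FPKM + 0.1) entered a linear model in limma 3.58.1 under R 4.3.3 (lmFit, eBayes with trend, 3 genotypes, 6 mice, no block), with an F-test and pairwise contrasts, 2-sided, adjusted by Benjamini-Hochberg over all tested genes at 0.05. The fit was tested on simulated data. Low genes have their fold changes understated on this scale. Members and lists were chosen with earlier results of these data known. Named genes are the 10 members, and from each list any gene that passed the test, up to 4 with the highest mean FPKM and, in fat cell lists, up to 4 with the largest homozygous log2 fold change. Otop1, Elovl3, Zic1, Dio2, Ebf2, Bmp8b and Ppargc1a of the brown fat list and Svs1, Svs3a, Svs3b and Svs6 were named after their values were seen. The 10 genes most like the members were taken by correlation. Trarg1 was matched by identifier under the symbol Tusc5. Promoters are from RefSeq (GRCm38.p6). Alternatives were a pseudocount of 1 or 0.01, no filter or a mean FPKM of 5, quantile normalization, median scaling, no intensity trend, each gene alone, only the 2 genotypes compared, and leaving out each mouse. Leaving out mice for medians and for counts that are positive, at an unadjusted p or without overlap was added after seeing the data. Tables and figures were made in Python 3.11.15 (pandas 2.3.3, numpy 2.4.6, matplotlib 3.10.9).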

Additional observations from a re-analysis of the deposited data

How the results depend on the processing

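No member passed the test under any alternative, with 1 exception: without homozygous mouse 49, Ucp1 passed in homozygous against wildtype mice (log2 6.66, limma adjusted p = 0.030), so the number of members called there ranged from 0 to 1 when 1 mouse was left out and was 0 in the other 3 comparisons. Of 264 log2 fold changes of members under the settings other than leaving out a mouse, 263 kept their direction and their side of the threshold, and 1 reversed, Cidec in homozygous against heterozygous mice (0.056 with quantile normalization). The filters, the intensity trend, each gene alone and the 2 genotypes alone do not alter a log2 fold change. Its direction was therefore fixed under these settings, and only its side of the threshold could change. When 1 mouse was left out, 164 of 180 kept both and 15 reversed. The log2 fold change of heterozygous against wildtype mice then ranged from −0.10 to 0.76 for Adipoq, −0.81 to 1.26 for Lep, −0.052 to 0.73 for Fabp4, −0.11 to 0.42 for Cidec, −0.20 to 0.23 for Cfd and −0.31 to 0.52 for Retn. That of homozygous against wildtype mice ranged from −1.62 to 0.45 for Lep, −0.15 to 0.38 for Cidec −0.29 to 6.66 for Ucp1, 0.215 to 1.08 for Adipoq, 0.24 to 1.07 for Retn and 0.42 to 1.26 for Fabp4, and that of homozygous against heterozygous mice from −0.16 to 0.077 for Cidec, −0.032 to 0.49 for Pck1 and −5.73 to 1.21 for Ucp1. Of these reversals, 7 of 15 came with wildtype mouse 41 left out. Leaving out a mouse outside the 2 genotypes of a contrast does not alter its log2 fold changes, so those directions were fixed. Members higher at an unadjusted p under 0.05 ranged from 0 to 5 in heterozygous against wildtype, 2 to 7 in homozygous against wildtype and 0 to 1 in homozygous against heterozygous mice, and members lower from 0 to 1 in each. Members higher without overlap ranged from 3 to 9, 7 to 9 and 4 to 7 in the same order, and members lower without overlap from 0 to 1, 0 to 2 and 1 to 2. The lower ends of these ranges without overlap were fixed, because leaving out a mouse cannot undo a separation. The members' median log2 fold change ranged from −0.073 to 0.75, 0.47 to 1.07 and 0.13 to 0.54, and the number positive from 4 to 10, 8 to 10 and 6 to 8. In homozygous against wildtype mice the median of the receptors and partners ranged from −0.62 to 0.55 and that of the family relatives from −0.065 to 0.094. The number of all genes called depended on the setting. It was 14 for the F-test (0 with each gene alone, 3 with no filter, 4 with quantile normalization, 9 without the intensity trend, 0 to 9 leaving out a mouse), 0 in heterozygous (0 to 1) and 53 in homozygous against wildtype mice (0 with each gene alone, 4 with no filter, 23 without the intensity trend, 2 with the 2 genotypes alone, 4 to 96 leaving out a mouse), and 2 in homozygous against heterozygous mice (0 to 40). The causes were not tested. The order of the members by level changed in 0 mice under median scaling and quantile normalization. This was fixed, because both keep the order of genes within a mouse. No paired analysis was possible because the animals of the genotypes carry different numbers and the labels pair none. With 2 mice per genotype, differences of the size seen here are hard to separate from the spread between animals.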
